A study of Mus musculus with 8 samples.

Results

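The genes described here are 7 transcription factors and chromatin proteins tied to the specification of primordial germ cells (PGCs), the embryonic precursors of eggs and sperm: Prdm1, Prdm14, Tfap2c, Tfap2a, Sox15, Sox17 and Hmgb3. They were chosen by symbol, current or older, from the annotation of the array probes, and are 7 of 16390 genes named there. Each had 1 probe with a value on all 8 arrays. Tfap2c and Tfap2a were listed under the older symbols Tcfap2c and Tcfap2a.

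RNA of mouse cells carrying a Nanog-GFP reporter was hybridised to 8 one-colour arrays, 2 in each of 4 groups. The groups were PGCs of stage E11.5 (E11.5PGCs), cells after 3 days (Day3) and 6 days (Day6) of culture, and embryonic germ cells (EG), the pluripotent line that germ cells can give rise to in culture. The labels of the cultured groups, Day3, Day6 and EG, carry "2i+A83", which stands for PD325901 at 1 µM against MEK, CHIR99021 at 3 µM against GSK3, and A83-01 at 250 nM against the receptors for Activin and Nodal. The labels give this treatment, and a medium with 15% serum replacement, LIF and bFGF, for all 4 groups, E11.5PGCs included, so they do not say whether the E11.5PGCs met the inhibitors before harvest. The design text states that candidate pluripotent cells were sorted during culture, so the cultured groups may be a selected part of the culture. Nothing in the labels says that the 2 arrays of a group came from separate animals or cultures, and p-values then measure only the spread between these arrays, which may be technical.

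In mouse embryos, BMP signals from extraembryonic tissue act with WNT on the epiblast to start the germ line. PRDM1 (BLIMP1) represses the somatic programme, PRDM14 supports pluripotency genes and the removal of DNA methylation, and TFAP2C acts downstream of PRDM1. Together these factors can direct epiblast-like cells to a PGC-like fate. SOX17 is a main specification factor in human PGCs, and in the mouse is best known for endoderm and endothelium. TFAP2A is the paralog of TFAP2C known from epidermis and neural crest, SOX15 is a SOX factor known from mouse pluripotent cells, and HMGB3 is a chromatin protein with HMG boxes.

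Promoter windows, from 250 bases before to 50 bases after the annotated start, were found in the RefSeq table (GRCm38.p6) for 4 of the 7 genes, in 5 windows. The window of Hmgb3 is shown because Hmgb3 had the widest range of levels among the 7. That of Sox15 is shown beside it as the window of the other gene called lower at Day6 with the array series in the model. Capitals mark matches, on either strand, to the AP-2 letters GCCNNNGGC bound by the TFAP2 family and to the PRDM1 letters AGNGAAAG. The windows lie at chrX:71555667-71555966 (Hmgb3) and chr11:69654787-69655086 (Sox15), both on the plus strand.
Hmgb3: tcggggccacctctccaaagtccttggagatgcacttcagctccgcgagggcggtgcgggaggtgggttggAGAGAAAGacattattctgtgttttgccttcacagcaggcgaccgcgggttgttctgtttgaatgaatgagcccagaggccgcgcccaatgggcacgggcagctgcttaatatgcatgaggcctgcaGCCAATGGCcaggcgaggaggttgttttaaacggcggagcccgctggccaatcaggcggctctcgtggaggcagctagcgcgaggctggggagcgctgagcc
Sox15: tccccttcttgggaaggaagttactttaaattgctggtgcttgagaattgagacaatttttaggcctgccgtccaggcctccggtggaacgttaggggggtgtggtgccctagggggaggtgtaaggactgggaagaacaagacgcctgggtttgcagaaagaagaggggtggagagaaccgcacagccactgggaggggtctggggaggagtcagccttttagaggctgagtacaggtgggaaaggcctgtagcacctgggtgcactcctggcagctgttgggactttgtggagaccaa
The Hmgb3 window held 1 AP-2 match beginning 52 bases before the start and 1 PRDM1 match beginning 179 bases before it. The AP-2 match overlaps 1 of 3 matches to the letters CCAAT in this window. Of all 32851 RefSeq windows of this length, 16.6% held the AP-2 letters and 8.63% the PRDM1 letters. The Sox15 window, and the windows of Prdm1 and Tfap2a, held no match to either, nor to the SOX letters CATTGT (in 12.6% of windows) or the PRDM14 letters GGTCTCTAA (in 0.256%). The Hmgb3 window was 61.3% G and C with 20 CpG, and the Sox15 window 56.0% with 5 CpG, beside medians of 52.7% and 7 CpG over all windows. A match is a description of letters and no evidence of binding.

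The table held 23473 probes, of which 21126 to 22404 had a value on each array, and array medians of intensity lay between 19.99 and 20.01. The intensities have no unit, so an intensity of 20 is about the array median, and 4.24 is the upper limit of the dimmest 5850 probes. All 7 germ cell markers (Dppa3, Ddx4, Dazl, Nanos3, Dnd1, Mael, Kit) lay above the array median on all 8 arrays, and their summed intensity was 17310 and 10236 in E11.5PGCs, 8011 and 6715 on the Day3 arrays, 1294 and 3454 on the Day6 arrays, and 1952 and 1581 in EG. In E11.5PGCs Dppa3 gave 10543 and 5303 of this sum. Mael overlapped between E11.5PGCs (653 and 314) and EG (455 and 493), and each of the others was lower on both EG arrays. The summed intensity of 7 pluripotency markers (Nanog, Zfp42, Esrrb, Klf4, Fgf4, Tdgf1, Utf1) was 7338 and 7731 in E11.5PGCs, 9150 and 8672 on the Day3 arrays, 14125 and 16766 on the Day6 arrays, and 15775 and 20622 in EG. Utf1 went the other way, at 4192 and 4537 in E11.5PGCs, 642 and 412 on the Day6 arrays, and 2077 and 1636 in EG. Each of the others was higher on both EG arrays than on both E11.5PGCs arrays. Of 9 gonadal somatic markers 0 lay above the array median on the E11.5PGCs and Day3 arrays, 1 on each Day6 array, and 1 and 2 on the EG arrays. Their sum was 48 and 56.2 in E11.5PGCs and 169 and 187 in EG, of which Amhr2, a hormone receptor, gave 136 and 143 in EG. The arrays fall into 2 series by the array names in the labels, A and B. Series A holds both arrays of EG and the first replicate of each other group, and series B the second replicates. Day6 replicate 1 had the highest summed fibroblast markers, at 1155 against 141 in replicate 2 and 98.9 to 432 on the other arrays. Most of this sum was Thy1, at 747 against 10.7 in replicate 2. Thy1 was also 96.6 and 71 in EG, against 1.86 to 5.37 on the E11.5PGCs and Day3 arrays. Col1a1 (43.5) and Col1a2 (129) were also highest on this array. Dcn (68.2) and Col3a1 (101) were higher on Day3 replicate 2, at 173 and 137. In such bulk samples, fewer cells of a type and less RNA per cell cannot be told apart.

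Of the 7 genes, Hmgb3 fell from E11.5PGCs to EG, and the group means of Prdm14 lay within 1.13-fold of each other. Tfap2a was also called lower in EG, but was dim, at 4.97 and 4.89 in E11.5PGCs and under 4.24 in EG. Changes are log2 differences of group means with their standard error, and a gene is called where the adjusted p (limma, Benjamini-Hochberg) is under 0.05. In EG over E11.5PGCs 2 of 7 were called, beside 11.2% of all probes tested. In the other 5 comparisons 0 of 7 were called, beside 2.08% of probes in Day3 over E11.5PGCs, 8.61% in Day6 over E11.5PGCs, 0.00% in Day6 over Day3, 0.169% in EG over Day6 and 1.42% in EG over Day3. At an unadjusted p under 0.05, limma gave 0, 2, 1, 1 and 3 of the 7 in these 5 comparisons, beside 14.4%, 23.9%, 8.91%, 13% and 15.8% of all probes, both in the same order. In a model that blocks on the array series, 3 of 7 were called in EG over E11.5PGCs (23.6% of probes) and 2 of 7 in Day6 over E11.5PGCs (23.8%). It called 0 of 7 in Day3 over E11.5PGCs (8.34%), Day6 over Day3 (1.80%), EG over Day6 (1.96%) and EG over Day3 (5.68%). For EG, which lies in series A only, the block assumes an equal offset between series for all groups.

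**Figure D1:**
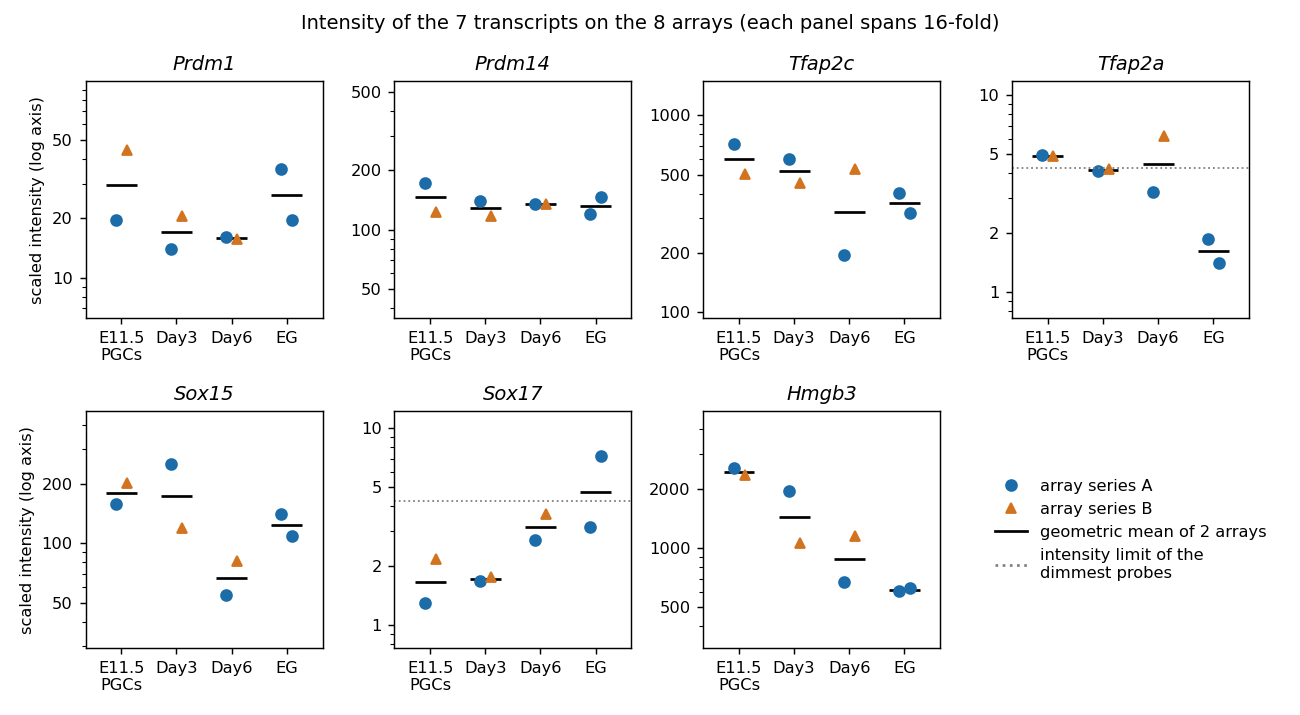
Intensity of the 7 genes on each of the 8 arrays (log scale) by group, with circles for array series A, triangles for series B, a bar for the geometric mean of the 2 arrays and a dotted line at 4.24. Hmgb3 lies at 2541 and 2357 in E11.5PGCs and at 603 and 628 in EG, while Prdm14 stays between 117 and 172 on all arrays.

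Prdm1, the repressor of the somatic programme, had intensities of 19.7 and 44.3 in E11.5PGCs, 14.0 and 20.6 on the Day3 arrays, 16.1 and 15.7 on the Day6 arrays, and 35.6 and 19.6 in EG. Both Day6 arrays lay below both E11.5PGCs arrays, and the other groups overlapped E11.5PGCs. The change was -0.80 ± 0.48 at Day3 (adjusted p = 0.539), -0.89 ± 0.48 at Day6 (adjusted p = 0.314) and -0.16 ± 0.48 in EG (adjusted p = 0.871), each over E11.5PGCs in limma. The Day6 difference was -0.29 within series A and -1.49 within series B, so its size differed between the pairs of arrays. For EG the sign depended on the model, with 0.12 when the array series was a block.

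Prdm14, which supports pluripotency genes, had intensities of 172 and 123 in E11.5PGCs, 140 and 117 on the Day3 arrays, 135 and 135 on the Day6 arrays, and 120 and 146 in EG. The groups overlapped in every comparison. Its group means spanned 0.18 on the log2 scale, smaller than in all but 2.7% of the 19524 probes measured on all arrays, where the median probe spanned 0.81. The change in EG over E11.5PGCs was -0.14 ± 0.29 (adjusted p = 0.806 in limma), with a 95% interval from 1.77-fold lower to 1.46-fold higher, so a larger change in the mean lay outside the interval. The interval at Day6 ran from -0.79 to 0.58 on the log2 scale. Quantile normalization turned the sign of both, to 0.05 in EG and 0.01 at Day6.

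**Figure D2:**
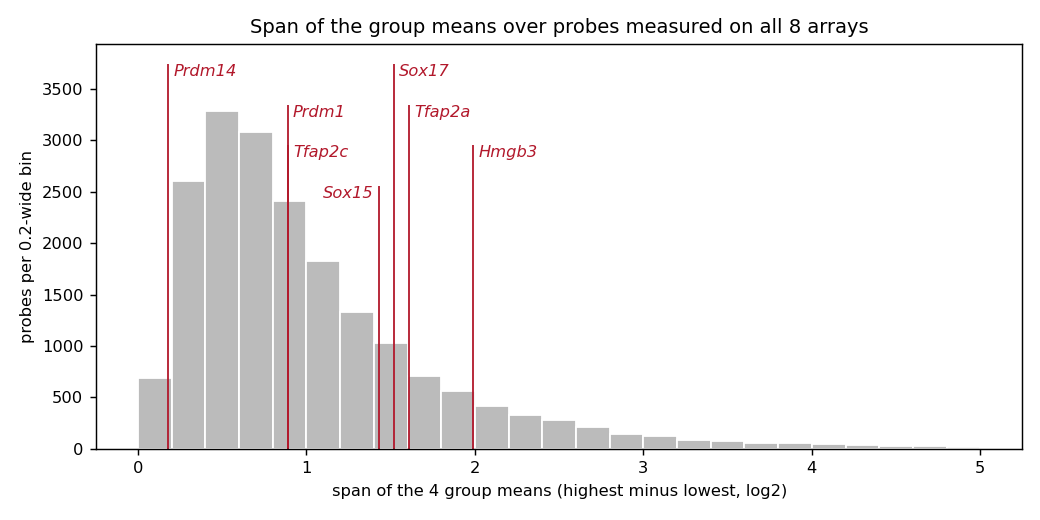
Distribution over probes measured on all 8 arrays of the span of the 4 group means (highest minus lowest, log2), with the 7 genes marked. Prdm14 at 0.18 lies far left of the median of 0.81, and Hmgb3 at 1.99 lies right of it.

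Tfap2c, which acts downstream of Prdm1, had intensities of 713 and 503 in E11.5PGCs, 600 and 452 on the Day3 arrays, 195 and 535 on the Day6 arrays, and 404 and 320 in EG. The EG arrays lay below both E11.5PGCs arrays, and the Day6 arrays lay on both sides of the EG arrays. The change over E11.5PGCs was -0.74 ± 0.49 in EG (adjusted p = 0.39) and -0.89 ± 0.49 at Day6 (adjusted p = 0.332 in limma). The Day6 value rested on replicate 1, since without that array it was -0.16, and it was -1.87 within series A and 0.09 within series B. The same array had the high fibroblast sum, mostly Thy1, and a summed germ cell marker intensity of 1294 against 3454 in replicate 2. The part of these in the result was not tested.

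Tfap2a, the paralog known from epidermis, was dim, with 4.97 and 4.89 in E11.5PGCs, 4.12 and 4.23 on the Day3 arrays, 3.23 and 6.2 on the Day6 arrays, and 1.87 and 1.40 in EG. The EG arrays lay below all 6 other arrays and under 4.24. Tfap2a was called lower in EG over E11.5PGCs (adjusted p = 0.0334 in limma). The sources used here give no background call, and with values under 4.24 raised to that limit the level was at least 1.16-fold lower in EG. With a pseudocount of 5 the adjusted p was 0.0924 in limma, and without any 1 of the 4 E11.5PGCs and EG arrays the adjusted p was 0.129 to 0.226. Of 8 markers of epidermis and neural crest 5 had a probe, and their sum was 95.7 and 80.3 in E11.5PGCs and 89.5 and 84.7 in EG, with overlap. Single markers went both ways. Krt14 was higher in EG (46.5 and 41.6 against 38.5 and 30.9) and Ngfr lower (6.6 and 7.21 against 9.41 and 14.6). Trp63 was 10.7 and 4.86 in E11.5PGCs and 1.34 on the EG array that measured it. The part of these cell types in the result for Tfap2a was not tested. Between EG and Day6 Tfap2a was not called (adjusted p = 0.162 in limma).

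Sox15, the SOX factor known from pluripotent cells, had intensities of 159 and 202 in E11.5PGCs, 252 and 120 on the Day3 arrays, 54.3 and 81.5 on the Day6 arrays, and 141 and 109 in EG. Both Day6 arrays lay below the 6 other arrays. The change at Day6 over E11.5PGCs was -1.43 ± 0.42 (95% interval -2.42 to -0.43), with an adjusted p of 0.0892 in limma, or 0.0489 under the series block. It was -1.54 within series A and -1.31 within series B. Without Day6 replicate 1, the array with the high fibroblast sum, mostly Thy1, it was -1.13. The part of these markers in the result was not tested. From Day6 to EG the change was 0.90 ± 0.42 (adjusted p = 0.439 in limma).

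Sox17, the specification factor of human PGCs, was among the dimmest probes, with 1.29 and 2.15 in E11.5PGCs, 1.68 and 1.76 on the Day3 arrays, 2.71 and 3.68 on the Day6 arrays, and 3.16 and 7.17 in EG. The Day6 and EG arrays lay above the E11.5PGCs and Day3 arrays, and 7 of the 8 arrays were under 4.24. In EG over E11.5PGCs the adjusted p was 0.0776 in limma, 0.0319 under the series block and 0.147 with a pseudocount of 5. With both E11.5PGCs arrays raised to the limit of 4.24 and the EG arrays left as measured, the mean in EG was 1.12-fold higher. Only 1 of the 2 EG arrays lay above that limit, so this is no lower bound. The summed endoderm markers were 169 and 98.9 in E11.5PGCs and 78.8 and 108 in EG, and those of endothelium 157 and 127 against 64.2 and 60.7, where most of the difference lay in 1 gene of each list. Without Cxcr4, a receptor that PGCs also carry, the endoderm sums were 58.2 and 45.9 in E11.5PGCs and 69.5 and 98 in EG, higher on both EG arrays. On the Day3 arrays, where Sox17 was 1.68 and 1.76, these sums were 124 and 58.3, and on the Day6 arrays 91.9 and 51.5. Without Cldn5, a tight junction gene, the endothelium sums were 51.4 and 46.1 against 50.3 and 48.8, with overlap. Of those left, Tek (5.97 and 6.52 in EG against 1.74 and 1.91) and Sox18 (7.09 and 9.36 against 3.09 and 2.48) were higher on both EG arrays. Kdr, Tie1 and Esam were not. The part of these cell types in the result for Sox17 was not tested.

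Hmgb3, the HMG box chromatin protein, had intensities of 2541 and 2357 in E11.5PGCs, 1951 and 1060 on the Day3 arrays, 673 and 1147 on the Day6 arrays, and 603 and 628 in EG. Both EG arrays lay below all other arrays, and both E11.5PGCs arrays above all others. The fall in EG over E11.5PGCs was 3.98-fold (-1.99 ± 0.39, 95% interval -2.91 to -1.07, adjusted p = 0.0226 in limma). Without any 1 of the 4 E11.5PGCs and EG arrays the change was -1.94 to -2.05 and the adjusted p 0.104 to 0.145. At Day6 the change over E11.5PGCs was -1.48 ± 0.39 (adjusted p = 0.0643 in limma), with 0.0328 when the array series was a block, -1.92 within series A and -1.04 within series B. Without Day6 replicate 1, the array with the high fibroblast sum, mostly Thy1, it was -1.09. At Day3 it was -0.77 ± 0.39 (adjusted p = 0.454 in limma). The order of the means was E11.5PGCs, Day3, Day6 and EG, and no step between neighbours in it was called.

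**Figure D3:**
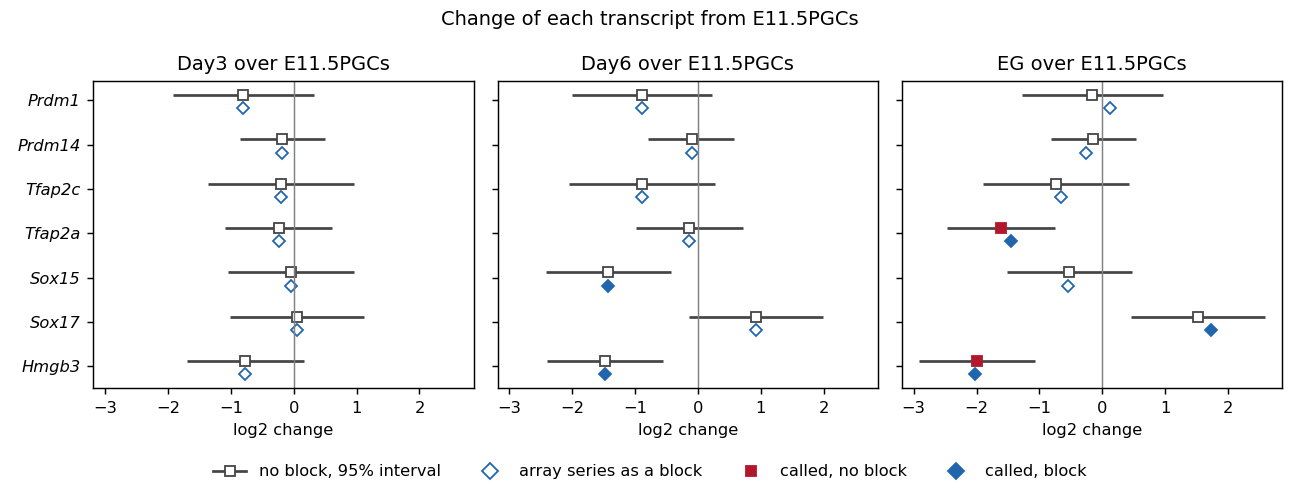
Change of each of the 7 genes (log2) in the 3 comparisons over E11.5PGCs, squares without a block and diamonds with a series block, filled where called, and lines for the 95% interval without the block. Hmgb3 (-1.99) and Tfap2a are filled in EG over E11.5PGCs without the block, and the values drawn for Tfap2a and Sox17 rest on intensities near or under 4.24.

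Across the 7 genes the median change over E11.5PGCs was -0.20 at Day3, -0.89 at Day6 and -0.53 in EG, beside -0.13, -0.16 and -0.16 over all probes. These medians rest on few arrays. At Day6 the median of the 7 was -0.16 without Day6 replicate 1, beside -0.12 over all probes, and -0.35 without E11.5PGCs replicate 2. Day6 replicate 1 is the array with the highest fibroblast sum, mostly Thy1. Leaving out single arrays moved the median of the 7 between -0.41 and -0.05 at Day3 and between -0.72 and -0.34 in EG. With Tfap2a raised to the limit of 4.24 in EG, and Sox17 in E11.5PGCs, the median in EG was -0.22. In EG over E11.5PGCs 5 of 7 had arrays that did not overlap, beside 64.2% of all probes, and of these 1 was higher (24.3% of probes) and 4 lower (39.9%). In Day3 over E11.5PGCs the arrays of 2 of 7 did not overlap (41.1% of probes), in Day6 over Day3 2 (30.6%), in Day6 over E11.5PGCs 4 (49.6%), in EG over Day6 4 (46.2%) and in EG over Day3 4 (50.0%). The 3 comparisons over E11.5PGCs share the E11.5PGCs arrays. Between the 7, the Pearson correlation of log2 intensity over the 8 arrays was 0.78 for Tfap2c and Hmgb3, 0.74 for Tfap2a and Hmgb3, 0.73 for Tfap2c and Sox15 and -0.73 for Sox17 and Hmgb3. All other pairs lay between -0.67 and 0.66, and the points share the arrays and the groups. By the same measure each of the 7 was compared with 4230 or 4231 genes, so the highest values were picked from many over 8 arrays. The values for Tfap2a and Sox17 rest on intensities near or under 4.24, and the group means of Prdm14 spanned only 0.18. The genes most like each were Pomk (0.81), Kirrel2 (0.80) and Fam120b (0.79) for Prdm1, and Cenpa (0.78), Chd3 (0.76) and Otud3 (0.76) for Prdm14. For the AP-2 pair they were Zfp821 (0.94), Alox12b (0.93) and Try5 (0.93) for Tfap2c, and Lrr1 (0.98), Tomm22 (0.97) and Wdr12 (0.96) for Tfap2a. For the HMG box genes they were Enc1 (0.97), Fbxl19 (0.93) and Phlda2 (0.92) for Sox15, A2m (0.95), Tesc (0.95) and Myo1f (0.92) for Sox17, and Ap3s1 (0.99), Tgif2 (0.98) and Tmem241 (0.98) for Hmgb3.

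Of the signals upstream of specification, 12 of 13 genes had a probe. In EG 1 of 12 was called, beside 11.2% of all probes, namely Bmpr1a, a type I BMP receptor, which fell. Its intensity was 102 and 137 in E11.5PGCs, 67.8 and 94.4 on the Day3 arrays, 52.3 and 66.7 on the Day6 arrays, and 29.4 and 31 in EG. The change in EG was -1.97 ± 0.31 (adjusted p = 0.0112 in limma), and 0 of 12 were called at Day3 and Day6, where the 2 with the lowest p were T (-0.83 ± 0.28) and Bmpr1a (-0.57 ± 0.31), and Bmpr1a (adjusted p = 0.0977) and Bmp8b, which was under 4.24 on both E11.5PGCs arrays. At an unadjusted p under 0.05 limma gave 1 of 12 at Day3, 2 at Day6 and 4 in EG, beside 14.4%, 23.9% and 27.3% of all probes. The series block called T lower at Day3, 1 higher and 4 lower at Day6, and 2 lower in EG, beside 8.34%, 23.8% and 23.6% of all probes. For the whole list the median change was -0.27, -0.43 and -0.11 in the 3 comparisons.

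Of 8 partners of the factors tested, 1 was called in EG, beside 11.2% of all probes. It was Hdac2, a histone deacetylase, which fell from 1547 and 1569 in E11.5PGCs to 459 and 442 (-1.79 ± 0.30, adjusted p = 0.0145 in limma). At Day3 and Day6 0 of 8 were called, and Hdac2 (-0.77 ± 0.30 and -1.07 ± 0.30) and Cbfa2t2, a co-repressor that binds PRDM14 (-0.61 ± 0.29 and -0.84 ± 0.29), had the lowest p. At an unadjusted p under 0.05 limma gave 1 of 8 at Day3, 2 at Day6 and 2 in EG (14.4%, 23.9% and 27.3% of all probes). The series block called 2 lower at Day6 and 2 lower in EG (23.8% and 23.6% of all probes). The median change was -0.46, -0.28 and -0.58.

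Of 15 germ cell genes switched on after specification, over E11.5PGCs 1 rose and 2 fell on Day3 arrays. At Day6 1 rose and 4 fell, and 1 rose and 6 fell in EG. Dnd1, an RNA-binding protein needed for germ cell survival, had the lowest p of those that fell, going from 2140 and 1555 in E11.5PGCs to 43 and 30.7 at Day6 and 89.3 and 104 in EG (-5.65 ± 0.40 and -4.24 ± 0.40). Cxcr4, the receptor that guides PGC migration, changed by -3.43 ± 0.46 at Day6 and -2.98 ± 0.46 in EG. Ddx4, an RNA helicase, changed by -1.60 ± 0.31 at Day6, and Dazl, an RNA-binding protein of germ cells, by -4.80 ± 0.86 in EG. The one that rose in all 3 was Itga6, an integrin subunit, by 2.72 ± 0.28, 2.74 ± 0.28 and 2.21 ± 0.28. Of all probes 2.08%, 8.61% and 11.2% were called in these 3 comparisons. Under the series block 5 of the 15 were called at Day3, 9 at Day6 and 8 in EG, beside 8.34%, 23.8% and 23.6% of all probes. The median change was -0.42, -1.75 and -1.33.

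Of 15 tested genes that the factors are known to repress, 1 rose and 1 fell at Day3, beside 2.08% of all probes called. Both at Day6 and in EG 3 rose and 2 fell, beside 8.61% and 11.2% of all probes called. Those that rose at Day6 and in EG, Dnmt3b, Dnmt3l and Uhrf1, act in DNA methylation. Dnmt3a, the other de novo methyltransferase of the list, named after its values were seen, had intensities of 61.4 and 77 in E11.5PGCs, 12.6 and 36.8 on the Day3 arrays, 19.8 and 29 on the Day6 arrays, and 131 and 115 in EG. It was not called (adjusted p = 0.178, 0.118 and 0.338 in limma), while the series block called it lower at Day3 and Day6 and higher in EG (adjusted p = 0.0297, 0.018 and 0.0438). Dnmt3b, a DNA methyltransferase, was 70.6 and 57.4 in E11.5PGCs and 974 and 612 in EG (3.60 ± 0.41). Dnmt3l, its cofactor, was 4.2 and 3.38 in E11.5PGCs, under the limit of 4.24, and 902 and 738 in EG, at least 192-fold higher. Uhrf1, which guides maintenance methylation, changed by 4.05 ± 0.49 at Day6. Of those that fell, Lhx1, a homeobox factor, was 513 and 335 in E11.5PGCs and 3.87 and 3 in EG, under that limit and at least 97.7-fold lower, and Fgfr2, an FGF receptor, changed by -2.91 ± 0.30. The series block called 5 of the 15 at Day3, 7 at Day6 and 7 in EG, beside 8.34%, 23.8% and 23.6% of all probes. The median change of the list was -0.05, -0.30 and 0.01, beside -0.13, -0.16 and -0.16 over all probes.

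**Figure D4:**
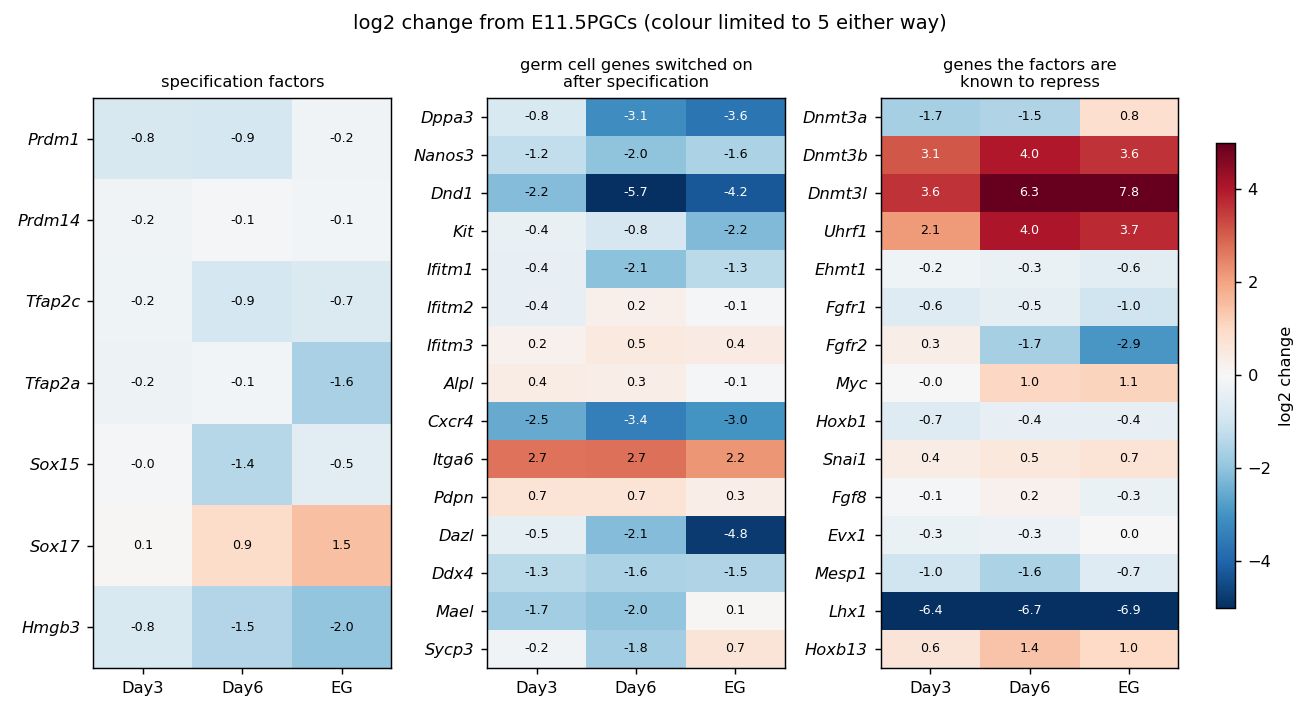
Change from E11.5PGCs (log2, colour limited to 5 either way) at Day3, Day6 and in EG for the 7 genes, the germ cell genes and the genes that the factors are known to repress, with the value printed in each cell. Lhx1 and Dnd1 are lower and Dnmt3l and Dnmt3b higher in EG, by more than the 7 genes.

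Among relatives of the 7, Prdm16, a zinc finger factor of the PRDM family, rose at Day6 (2.11 ± 0.34, adjusted p = 0.0121 in limma) and in EG (3.56 ± 0.34, adjusted p = 0.00262 in limma). Its intensity was 5.89 and 5.60 in E11.5PGCs, 10.4 and 14.8 on the Day3 arrays, 28.1 and 22.0 on the Day6 arrays, and 54.0 and 85.0 in EG, with no overlap between any groups. Of the other relatives in the PRDM, TFAP2, SOX and HMGB families, 0 were called over E11.5PGCs. Of the 23 tested in each comparison, Prdm16 included, limma gave an unadjusted p under 0.05 for 2 at Day3, 3 at Day6 and 4 in EG, beside 14.4%, 23.9% and 27.3% of all probes. The series block called 1 higher at Day3, 2 higher and 1 lower at Day6, and 3 higher and 1 lower in EG, beside 8.34%, 23.8% and 23.6% of all probes called. Within the SOX, TFAP2 and HMGB families the lowest p in EG were those of Sox18 (adjusted p = 0.0523) and Sox11 (adjusted p = 0.13), Tfap2b (adjusted p = 0.387) and Tfap2d (-1.04 ± 0.71, adjusted p = 0.398), and Hmgb2 (-0.56 ± 0.31, adjusted p = 0.294) and Hmgb4 (-0.33 ± 0.25, adjusted p = 0.451), all in limma. Sox18 and Sox11 were under 4.24 on both E11.5PGCs arrays, and Tfap2b on every array that measured it. Hmgb2, the paralog of Hmgb3, was 12741 and 10463 in E11.5PGCs and 7396 and 8298 in EG. Whether the change of Hmgb3 differs from that of Hmgb2 was not tested, and whether a probe also binds transcripts of related genes was not tested.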

How the data were processed

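The deposited values were one-colour intensity per probe on TORAY mouse arrays, on a linear scale, with each array's median near 20. How background was removed, how arrays were scaled and why cells are missing is not given in the sources used here. Values were converted to log2 without further normalization, and missing cells stayed missing. Symbols came from the platform annotation, updated through synonyms in the RefSeq mouse gene table. A gene with several probes was represented by its brightest.

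Changes were tested with limma 3.58.1 in R 4.3.3, which fitted each probe over the 8 arrays with a term for each of the 4 groups (two-sided moderated tests). P-values were adjusted by Benjamini-Hochberg over all probes with a value on every array of both groups, at a threshold of 0.05. The procedure was tested on simulated data. Their noise was independent between arrays, equal in spread for all probes and without an offset between array series, so deviations shared between arrays were not tested. Changes with dim groups raised to the limit of the dimmest probes, medians without single arrays and marker sums without 1 gene were added after the data were seen. Alternatives were quantile normalization, a pseudocount of 5, dropping the dimmest 5850 probes, centring on probes with no missing cell, the array series or the replicate number as a block, a model on the 2 groups alone, and removal of each array in turn.

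The 7 genes and the lists of related genes were chosen with earlier results of these data known. The text names all 7, at most 4 called genes of each list and comparison, or the 2 with the lowest p where none was called, and the 3 genes most correlated with each of the 7. These last were measured on all arrays, with group means that spanned at least 1 (log2) and reached above the array median. Where over 4 genes of a list were called, taking those with the lowest p was decided after their values were seen.

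The replicate numbers of E11.5PGCs, Day3 and Day6 coincide with the 2 series of array names in the labels, while both EG arrays lie in series A. Over 19524 probes, same-numbered arrays deviated together from their group means between E11.5PGCs and Day3 (r = 0.62), E11.5PGCs and Day6 (r = 0.55) and Day3 and Day6 (r = 0.69), and not between these and EG (r from -0.02 to 0.06).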

Additional observations from a re-analysis of the deposited data

How the results depend on the processing

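Of 618 changes of the 7 genes recomputed under the alternatives, 576 kept their direction and side of the threshold, 28 changed sign, none of them called in either setting, 5 passed the threshold newly and 9 no longer did. The log2 change cannot move when an array outside the 2 groups is left out, or in the model on the 2 groups alone. Nor can it with the replicate block, without the dimmest probes, or with the series block in comparisons without EG. In these settings only the adjusted p could change, so the kept direction was fixed in advance. The number of probes called moved with the model and with single arrays. With the array series as a block it was 1725 in Day3 over E11.5PGCs, 361 in Day6 over Day3, 4790 in Day6 over E11.5PGCs, 395 in EG over Day6, 1167 in EG over Day3 and 4905 in EG over E11.5PGCs. With the replicate block it was, in the same order, 804, 78, 2850, 241, 849 and 3951, and 3 of the 7 genes were called in EG over E11.5PGCs, where Sox17 had an adjusted p of 0.0212 in limma. For EG this block pairs arrays by number alone. Both EG arrays lie in series A, and they did not deviate together with same-numbered arrays of the other groups. Fitting only the arrays of the 2 groups gave 67, 0, 578, 0, 193 and 3804 probes. A pseudocount of 5 gave 700, 68, 2407, 162, 566 and 3093. In EG over Day6, quantile normalization gave 80 probes and removal of the dimmest 5850 probes 89. Of the 7 genes, 2 were called in Day6 over E11.5PGCs with the array series block and 1 with the pseudocount. In EG over E11.5PGCs 1 was called with the pseudocount and 1 without the dimmest probes, which removes Tfap2a from the test. Leaving out each array in turn gave 0 to 2 of the 7 in EG over E11.5PGCs, and 4 to 555, 0 to 0, 430 to 1652, 0 to 6, 0 to 422 and 232 to 2809 probes in the order above. Apart from the fits that leave arrays out, the changes that turned sign were Prdm14 with quantile normalization (0.01 in Day6 over E11.5PGCs, 0.04 in EG over Day6, 0.05 in EG over E11.5PGCs), Tfap2a with quantile normalization (-0.05 in Day6 over Day3), and, with the array series block, Prdm14 (-0.08 in EG over Day3) and Prdm1 (0.12 in EG over E11.5PGCs).

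With single arrays left out, these changes also turned sign within their range. In Day3 over E11.5PGCs they were Prdm14 (-0.42 to 0.06), Tfap2c (-0.45 to 0.05), Sox15 (-0.57 to 0.49) and Sox17 (-0.32 to 0.42). In Day6 over Day3 they were Prdm1 (-0.37 to 0.18), Prdm14 (-0.05 to 0.21), Tfap2c (-1.41 to 0.04) and Tfap2a (-0.37 to 0.57). In Day6 over E11.5PGCs they were Prdm14 (-0.35 to 0.14) and Tfap2a (-0.61 to 0.33). In EG over Day6 they were Prdm14 (-0.18 to 0.11) and Tfap2c (-0.58 to 0.88). In EG over Day3 they were Prdm14 (-0.10 to 0.18) and Sox15 (-1.02 to 0.05). In EG over E11.5PGCs they were Prdm1 (-0.75 to 0.43) and Prdm14 (-0.38 to 0.10). The causes were not tested. A group with 1 array left is assumed to vary like the others. With 2 arrays a group, and with Tfap2a and Sox17 among the dim probes, the arrays limit the precision.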
